A study of Mus musculus with 24 samples.

Results

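Constructs seeded with mesenchymal stromal cells (MSC) that had been primed with resolvin E1 (RvE1) were compared with constructs seeded with unprimed MSC, 8 of the 24 RNA-seq samples of the series. The members were taken from the sample labels: 4 samples of the group BCP+MSC+RvE1 and 4 of the group BCP+MSC, and all 30564 genes with at least 10 reads over the 24 samples. In both groups, 800000 mouse bone marrow MSC were cultured for 36 h on 40 mg of biphasic calcium phosphate (BCP) granules, a synthetic bone substitute. The authors' methods name wild-type C57BL/6J donors of the MSC, while a figure legend names wild-type or Foxp3-eGFP donors. The constructs were then implanted under the dorsal skin of male and female Foxp3-DTR/eGFP mice aged 8 to 9 weeks. In BCP+MSC+RvE1, RvE1 was present at 10 nM during these 36 h and was renewed with the medium at 24 h, while BCP+MSC received none. The hosts of both groups carry the diphtheria toxin receptor and eGFP under the Foxp3 promoter, which is active in regulatory T cells (Treg), but no toxin was given to them. RNA came from whole constructs harvested after 2 weeks, so that host tissue, implanted MSC and their progeny were read together. In such bulk samples, fewer cells of a type and less RNA per cell cannot be told apart.

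RvE1 is a lipid mediator made from eicosapentaenoic acid that takes part in the active ending of inflammation. It binds the receptor ChemR23, encoded by Cmklr1, on macrophages, dendritic cells and other cells, and acts as a partial agonist and antagonist at the leukotriene B4 receptor BLT1, encoded by Ltb4r1, on neutrophils. It is known for limiting neutrophil entry, for promoting the clearance of dying cells by macrophages, and for protecting bone in models of periodontitis. MSC, for their part, can give rise to osteoblasts and secrete factors that act on immune cells.

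The 8 libraries held 18077487 to 144417743 reads assigned to genes. The shallowest and the deepest were both of the primed group, replicates 2 and 4. A count of 3 reads, taken here as the floor of detection, was therefore worth between 0.0208 and 0.166 CPM, the usual unit in which counts are scaled to a common library total. By Xist and 4 Y-linked genes, all 4 BCP+MSC+RvE1 animals were male, while 3 of the 4 BCP+MSC animals, replicates 1 to 3, were female. Sex and priming were therefore largely confounded, and values with sex as a covariate, estimated over the 24 samples, are given for most genes named past the unadjusted threshold defined below and for the lists of genes whose direction they turned. BCP+MSC replicate 2 stood apart from the other 7 libraries. Its mean log2 CPM over 25 genes of the fast-fibre sarcomere was 3.69, against 8.57 to 10.20 in the others, and its fibroblast matrix genes had the highest mean of the 8. Results are therefore also given without it. The values of the animals below are listed in the order of replicates 1 to 4 and are CPM scaled by TMM, a correction for library composition, unless another scale is named.

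In edgeR, no gene differed between the groups after correction for multiple testing. Of 30564 genes, 0 had an adjusted p under 0.05 in edgeR's quasi-likelihood test (0.00%), and the smallest adjusted p was 0.924. DESeq2 on the same counts gave 3 such genes with all 24 samples in the fit and 1 with the 8 samples alone. These were Igkv4-54, Sftpd and Xist in the first case and Xist in the second. Igkv4-54, an immunoglobulin segment, had 55 reads in the primed group and 0 in the unprimed one. Pooled over the group, it was at least 14.4-fold higher against a floor of 3 counts. By animal it stood at 0.231, 0, 0.0567 and 0.261 CPM in BCP+MSC+RvE1 (edgeR unadjusted p = 0.0226, and 0.194 with sex as a covariate). Sftpd, surfactant protein D, had 0 reads in the primed group against 31, and was at least 13.1-fold lower when pooled. Of these reads, 21 came from 1 library (edgeR unadjusted p = 0.0612, and 0.362 with sex as a covariate). Both bounds pool the 4 animals of a group and do not cover the spread between them. An unadjusted p under 0.05 was reached by 996 genes (3.26%). Combined with a log2 fold change above 1 or below -1, called the unadjusted threshold below, it was reached by 338 genes that were higher in BCP+MSC+RvE1 (1.11%) and by 425 that were lower (1.39%), 763 in all (2.50%). The median log2 fold change over all genes was -0.04. Most of these 763 genes were barely expressed: 650 had a mean under 1 CPM in both groups, where 4.17% of genes reached the threshold, against 0.754% of the 14983 genes with a mean of at least 1 CPM in a group. The values of the 4 primed animals lay entirely above or below those of the 4 unprimed ones for 524 genes (1.71%), 265 of them higher and 259 lower. Without any difference between the groups, a share of about 0.05 of genes would have an unadjusted p under 0.05. A random order of the 8 animals separates the groups for a gene with a probability of 0.0286. The shares of 3.26% and 1.71% are not above these values. Since none of the genes below passed the adjusted threshold, "higher" and "lower" describe these 8 samples, and each p is unadjusted unless it is called adjusted. For single genes an exact permutation test over the 8 animals, two-sided, was added. Its smallest possible p is 0.0286, reached whenever the groups do not overlap. Genes said below to meet the rule for named genes had to pass the unadjusted threshold without overlap between the groups. Their small p and lack of overlap follow from this selection and are no further evidence of a difference.

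For both receptors of RvE1 the difference between the groups was smaller than its standard error. Cmklr1 (ENSMUSG00000042190.12, chromosome 5, 113612354 to 113650426, minus strand) was read at 57.3, 67.6, 74.2 and 57.1 CPM in BCP+MSC+RvE1 and at 54.6, 104, 55.4 and 75.4 CPM in BCP+MSC. The groups overlapped, with the highest value in the unprimed replicate 2 (log2 fold change -0.17 ± 0.24 (SE), unadjusted p = 0.475; exact permutation p = 0.686). Its sign turned to 0.05 without that animal. Ltb4r1 (ENSMUSG00000046908.5, chromosome 14, 55765962 to 55768494, plus strand) varied several-fold inside each group, from 8.19 to 45.5 CPM in BCP+MSC+RvE1 and from 14.4 to 53.4 CPM in BCP+MSC (log2 fold change -0.25 ± 0.52 (SE), unadjusted p = 0.641). It was -0.73 with sex as a covariate (unadjusted p = 0.283) and 0.81 among males alone. Of the 28 genes listed as receptors, enzymes and ligand of the lipid mediator system, 13 had a positive and 15 a negative log2 fold change, with a median of -0.06, and none reached the unadjusted threshold. The member of smallest p was Fpr2, the receptor of resolvin D1 and lipoxin A4. Its level was 16.4, 8.12, 9.91 and 9.11 CPM in BCP+MSC+RvE1 and 6.11, 6.52, 7 and 6.4 CPM in BCP+MSC. Every primed animal was thus above every unprimed one, although the fold change missed the threshold (log2 fold change 0.74 ± 0.49 (SE), unadjusted p = 0.143; 0.33 with sex as a covariate, unadjusted p = 0.568). Its exons overlap those of Fpr3 on the same strand, so reads of the 2 genes may have been mixed. Pla2g4a, the phospholipase that releases arachidonic acid, came next (log2 fold change -0.41 ± 0.27 (SE), unadjusted p = 0.149).

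**Figure D1:**
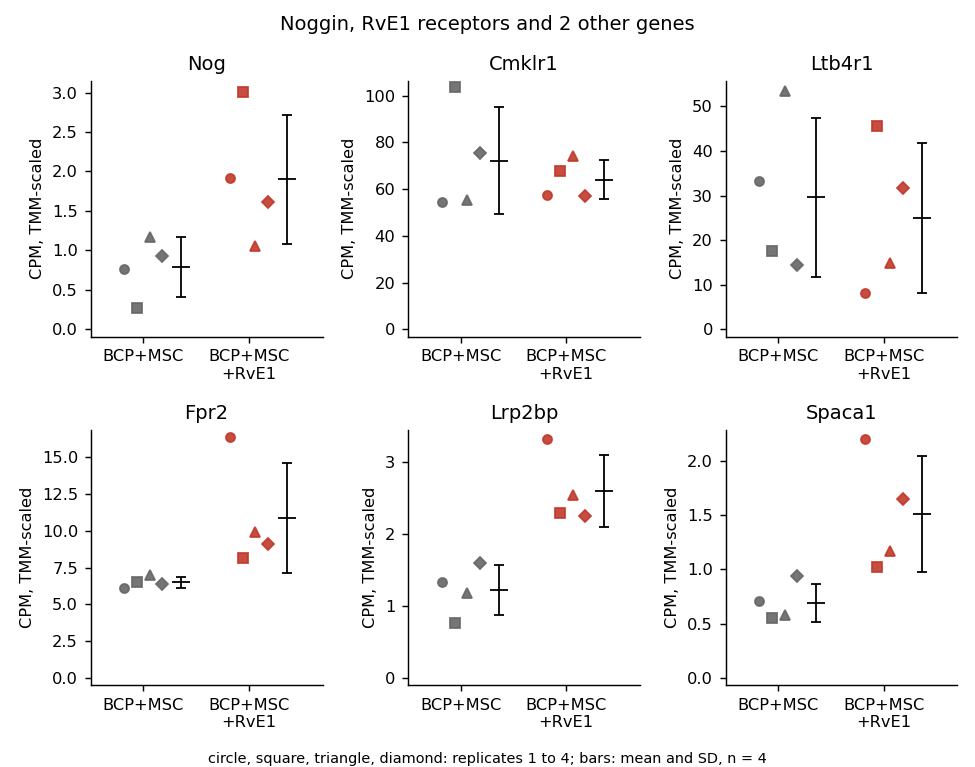
TMM-scaled CPM (y axis) of Nog, the receptors Cmklr1, Ltb4r1 and Fpr2, and the genes Lrp2bp and Spaca1 in each of 4 BCP+MSC (grey) and 4 BCP+MSC+RvE1 animals (red), with the mean and SD as black bars. Cmklr1 and Ltb4r1 overlap between the groups, while each primed animal lies above each unprimed one for Fpr2, Lrp2bp and Spaca1. Lrp2bp and Spaca1 were chosen by a rule that required this.

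Most genes of dividing cells had lower values in the primed constructs, although the mean level of the list overlapped between the groups. Mybl1 (ENSMUSG00000025912.16, chromosome 1, 9667415 to 9700209, minus strand), which encodes the transcription factor A-MYB of the MYB family, had the smallest p of all genes tested. Animal by animal it stood at 0.395, 0.181, 0.303 and 0.417 CPM in BCP+MSC+RvE1 and 0.791, 2.21, 0.778 and 1.49 CPM in BCP+MSC. The groups did not overlap, which the rule for named genes required, at means of 0.324 ± 0.107 and 1.32 ± 0.683 CPM (SD, n = 4). The difference was the same in sign and kept an unadjusted p under 0.05 on leaving out any of the 8 animals (log2 fold change -1.98 ± 0.48 (SE), unadjusted p = 0.00036; -2.16 to -1.60 on leaving out 1 animal). With sex as a covariate it was -2.17 (unadjusted p = 0.000547), and the male BCP+MSC animal alone had 1.49 CPM. These values rest on 3 to 56 reads per library in BCP+MSC+RvE1 and on 29 to 145 in BCP+MSC.

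Of the 36 cell cycle genes listed, 34 had a negative and 2 a positive log2 fold change. Their median was -0.40, beside -0.04 over all genes, with -0.55 for the 20 genes of mitosis and -0.28 for the 16 of DNA replication. Cenpf, a protein of the outer kinetochore, was the 1 member below the unadjusted threshold. It was read at 2.53, 2.53, 4.77 and 5.12 CPM in BCP+MSC+RvE1 and at 7.09, 14.7, 4.67 and 5.67 CPM in BCP+MSC. The highest primed value thus passed the lowest unprimed one (log2 fold change -1.10 ± 0.45 (SE), unadjusted p = 0.022; -1.82 with sex as a covariate, unadjusted p = 0.00172; exact permutation p = 0.0857). Bub1b, the spindle checkpoint kinase BUBR1, had a smaller difference (log2 fold change -0.58 ± 0.27 (SE), unadjusted p = 0.0381; -0.77 with sex as a covariate, unadjusted p = 0.022). Mcm6, a subunit of the replicative helicase, was the third member with an unadjusted p under 0.05. Beside the list, Ect2 and Mastl were 2 of the 3 lower genes that met the rule for named genes. That rule takes only genes without overlap, so the gaps between the groups follow from the selection. Ect2 (ENSMUSG00000027699.19, chromosome 3, 27097222 to 27153878, minus strand) activates RhoA for cytokinesis. Its level was 1.46, 0.842, 2.1 and 2.5 CPM in BCP+MSC+RvE1 and 2.51, 7.42, 3.21 and 3.13 CPM in BCP+MSC, with a narrow gap between the groups (log2 fold change -1.22 ± 0.53 (SE), unadjusted p = 0.0301; -1.72 with sex as a covariate, unadjusted p = 0.012). Mastl (ENSMUSG00000026779.6, chromosome 2, 23115606 to 23156024, minus strand) encodes the Greatwall kinase, which holds cells in mitosis by restraining the phosphatase PP2A. Animal by animal it stood at 1.47, 1.32, 1.76 and 1.98 CPM in BCP+MSC+RvE1 and 2.26, 5.94, 2.71 and 2.78 CPM in BCP+MSC. The groups again did not overlap, which the rule required. The log2 fold change was -1.06 ± 0.47 (SE, unadjusted p = 0.032), and -1.42 with sex as a covariate (unadjusted p = 0.0181).

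The animal that stood apart and the sex of the hosts bore on the size of these differences. BCP+MSC replicate 2 had the highest value of all 8 animals for each of Mybl1, Ect2, Mastl, Cenpf and Bub1b. Without it, the differences were -0.75 for Ect2, -0.65 for Mastl, -0.62 for Cenpf and -1.60 for Mybl1, and the list median was -0.34, with 0 members at an unadjusted p under 0.05. With sex as a covariate the list median was -0.76, all 36 members were negative and 13 were lower past the unadjusted threshold, beside 530 (1.73%) of all genes in that fit. Among males alone, where BCP+MSC has only replicate 4, the median was -0.07, with 21 members negative. The mean log2 CPM of the list by animal was 3.10, 3.28, 3.65 and 3.96 in BCP+MSC+RvE1 and 4.00, 4.22, 3.93 and 3.60 in BCP+MSC. The groups overlapped on this scale, since the primed replicate 4 stood above the unprimed replicate 4. The part of host sex in this difference was not tested beyond these values.

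**Figure D2:**
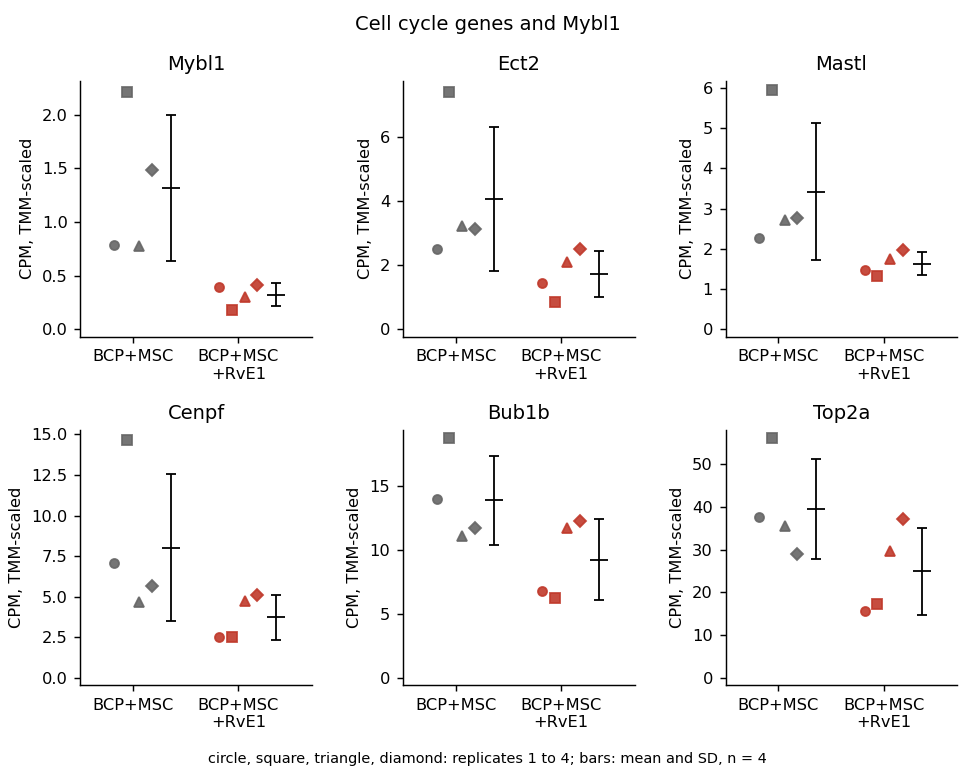
TMM-scaled CPM (y axis) of Mybl1 and 5 cell cycle genes in each of 4 BCP+MSC (grey) and 4 BCP+MSC+RvE1 animals (red), with the mean and SD as black bars. The groups do not overlap for Mybl1, Ect2 and Mastl, which the rule for named genes required. They overlap for Cenpf, Bub1b and Top2a, and BCP+MSC replicate 2 (square) is the highest value in every panel.

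Promoters of the 4 cell cycle genes Ect2, Mastl, Cenpf and Bub1b are shown, from RefSeq on GRCm38.p6, each with 250 bases before and 50 after the annotated start. These genes had been selected as lower genes or for a small p, so their common direction follows from the selection. Genes of late S phase and mitosis are known to share 2 promoter elements, the cell cycle homology region TTTGAA and the CCAAT box. Both were searched on either strand and are in capitals; the 2 motifs do not overlap each other. For Ect2 (chr3:27153829-27154128, minus strand), Cenpf (chr1:189688037-189688336, minus strand), Bub1b (chr2:118597961-118598260, plus strand) and Mastl (chr2:23155975-23156274, minus strand) the windows read as follows.
Ect2: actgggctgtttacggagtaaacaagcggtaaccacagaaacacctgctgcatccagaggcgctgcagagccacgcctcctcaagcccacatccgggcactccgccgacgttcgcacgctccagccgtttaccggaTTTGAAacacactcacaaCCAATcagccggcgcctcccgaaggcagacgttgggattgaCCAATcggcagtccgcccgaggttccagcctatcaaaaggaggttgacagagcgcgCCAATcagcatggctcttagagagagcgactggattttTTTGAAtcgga
Cenpf: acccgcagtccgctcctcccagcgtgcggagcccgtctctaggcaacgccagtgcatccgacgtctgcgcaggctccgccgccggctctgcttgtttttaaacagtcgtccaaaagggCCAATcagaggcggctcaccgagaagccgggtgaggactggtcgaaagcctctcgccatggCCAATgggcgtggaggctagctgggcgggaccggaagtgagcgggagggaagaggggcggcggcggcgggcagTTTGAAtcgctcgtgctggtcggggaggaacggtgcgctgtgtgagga
Bub1b: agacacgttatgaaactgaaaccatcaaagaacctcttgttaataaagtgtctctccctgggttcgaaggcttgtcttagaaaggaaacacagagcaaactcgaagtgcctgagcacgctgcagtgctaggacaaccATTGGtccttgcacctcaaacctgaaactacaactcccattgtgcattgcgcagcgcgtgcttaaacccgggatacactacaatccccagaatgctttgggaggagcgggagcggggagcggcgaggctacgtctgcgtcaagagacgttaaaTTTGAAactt
Mastl: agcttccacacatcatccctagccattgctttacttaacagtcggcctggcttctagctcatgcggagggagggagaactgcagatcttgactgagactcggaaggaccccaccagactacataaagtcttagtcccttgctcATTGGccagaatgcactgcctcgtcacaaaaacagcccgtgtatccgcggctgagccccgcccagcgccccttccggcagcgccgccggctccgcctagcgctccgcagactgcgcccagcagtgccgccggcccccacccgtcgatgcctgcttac
TTTGAA was present in the windows of Ect2, Cenpf and Bub1b, within 50 bases after the start in each, and a CCAAT box in all 4. Over the list, 12 of 30 promoters of 29 genes held TTTGAA (40%), against 17.9% of all 32851 promoters of this length, and 23 held CCAAT (76.7%), against 37.4%. Of the 22 promoters of the circadian clock genes described below, 16 held CCAAT too (72.7%) and 0 held TTTGAA. These are matches of letters only. The shares describe the listed genes whatever their values in these samples, and they say nothing of priming.

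Among annotated gene types with at least 20 genes tested, immunoglobulin variable (V) genes had the largest share past the unadjusted threshold. Of 199 V genes tested, 34 were higher and 6 lower in BCP+MSC+RvE1, 20.1% in either direction beside 2.50% of all genes, with a median log2 fold change of 1.33. A V gene is carried in rearranged form by the B cells and plasma cells of a clone, so its level follows the clones present in an animal. Summed over all V genes, the level was 126, 50.9, 742 and 1073 CPM in BCP+MSC+RvE1 and 78.3, 99, 349 and 698.5 CPM in BCP+MSC. The groups overlapped on this sum, and a primed animal was the lowest of the 8. Of the 34, 3 were counted in all 4 primed animals, and 3 V genes of the 199 were separated between the groups. Among the 81 V genes with a mean of at least 1 CPM in a group, 12 were higher and 3 lower, beside 0.754% of all genes at that level. Igkv4-80 (ENSMUSG00000076540.3, chromosome 6, 69016558 to 69017080, minus strand), a kappa light chain segment, was the gene of smallest p among the higher genes that met the rule for named genes. It was read at 0.571, 0.301, 0.605 and 5.27 CPM in BCP+MSC+RvE1 and at 0, 0, 0.0166 and 0.0891 CPM in BCP+MSC. All primed animals were above the unprimed ones, but 708 of the 787 primed reads came from replicate 4 (log2 fold change 5.79 ± 1.65 (SE), unadjusted p = 0.00206; 4.86 with sex as a covariate, unadjusted p = 0.012; 4.02 to 7.68 on leaving out 1 animal). Ighv1-81 (ENSMUSG00000094689.1, chromosome 12, 115920279 to 115920712, minus strand), a heavy chain segment, was read at 2.9, 0.903, 6.83 and 2.59 CPM in BCP+MSC+RvE1 and at 0.164, 0.351, 0.0331 and 0.876 CPM in BCP+MSC. Here the lowest primed and the highest unprimed value were nearly equal (log2 fold change 3.19 ± 1.24 (SE), unadjusted p = 0.0183; 2.83 with sex as a covariate, unadjusted p = 0.0478). The V genes given here by animal were named under that rule, so their separation between the groups follows from the selection. V genes share much sequence, so reads may have been split among near copies by the authors' counting.

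Among constant genes, Ighg2b (ENSMUSG00000076613.3, chromosome 12, 113302965 to 113307933, minus strand), which encodes the heavy chain of IgG2b, was read at 6.05, 9.87, 21.1 and 21.5 CPM in BCP+MSC+RvE1 and at 3.19, 3.11, 5.46 and 2.14 CPM in BCP+MSC. The groups did not overlap, which the rule for named genes required, at means of 14.6 ± 7.86 and 3.48 ± 1.41 CPM (SD, n = 4). The fold change had a wide error (log2 fold change 2.08 ± 0.96 (SE), unadjusted p = 0.0434) and missed the threshold with sex as a covariate (unadjusted p = 0.218). It was the 1 of 17 plasma cell genes past the threshold, of which 15 were positive, with a median of 0.79. Igkc, the kappa constant gene, varied from 46 to 2665 CPM within BCP+MSC alone (log2 fold change 0.60 ± 1.12 (SE), unadjusted p = 0.599). The count of V genes past the threshold changed with the animals and terms in the fit. It was 20 higher and 7 lower without the primed replicate 3, beside 404 and 646 of all genes. Without the primed replicate 4 it was 21 and 5, beside 281 and 292. Without the unprimed replicate 3 it was 19 and 5, beside 562 and 605. With sex as a covariate it was 15 and 8 of 199, beside 524 (1.71%) and 530 (1.73%) of all genes. The median of the plasma cell list was then 0.09. The median over V genes was 0.46 with sex as a covariate and 0.97 among males alone. Another RvE1 comparison of the series is described at the end. There the V gene count was also 34 higher and 6 lower, beside 802 (2.62%) and 765 (2.50%) of all genes.

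**Figure D3:**
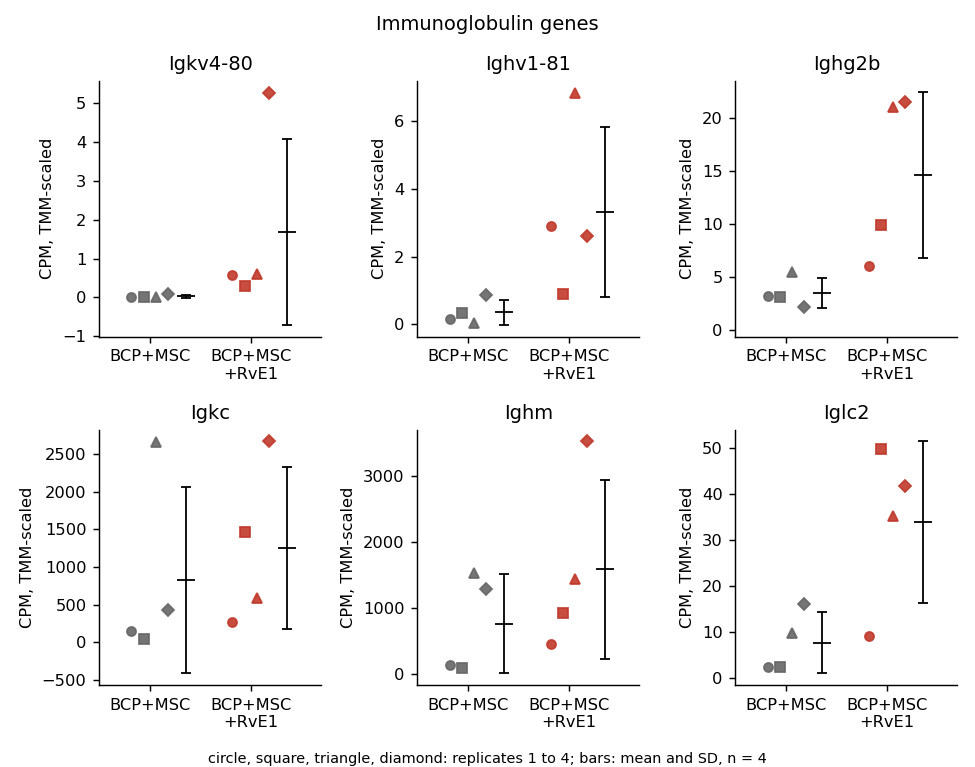
TMM-scaled CPM (y axis) of 2 immunoglobulin variable genes and 4 constant genes in each of 4 BCP+MSC (grey) and 4 BCP+MSC+RvE1 animals (red), with the mean and SD as black bars. Igkv4-80, Ighv1-81 and Ighg2b are higher in each primed animal than in any unprimed one, whereas Igkc, Ighm and Iglc2 overlap. The genes without overlap were chosen by a rule that required it.

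The other 2 higher genes that met the rule for named genes were Lrp2bp and Spaca1. Their lack of overlap between the groups was a condition of that rule. Lrp2bp (ENSMUSG00000031637.13, chromosome 8, 45999303 to 46029477, plus strand) encodes a protein that binds the endocytic receptor megalin. Its level was 3.32, 2.29, 2.53 and 2.25 CPM in BCP+MSC+RvE1 and 1.34, 0.763, 1.18 and 1.59 CPM in BCP+MSC, without overlap (log2 fold change 1.10 ± 0.44 (SE), unadjusted p = 0.0207; 0.53 with sex as a covariate, unadjusted p = 0.269). Its exons overlap those of Ankrd37 on the opposite strand, and no strand setting is stated for the counting, so the reads of the 2 genes cannot be told apart. Spaca1 (ENSMUSG00000028264.16, chromosome 4, 34024874 to 34050191, minus strand), known as a sperm acrosome protein, was read at 2.2, 1.02, 1.17 and 1.65 CPM in BCP+MSC+RvE1 and at 0.709, 0.549, 0.579 and 0.936 CPM in BCP+MSC (log2 fold change 1.13 ± 0.52 (SE), unadjusted p = 0.0402; 0.64 with sex as a covariate, unadjusted p = 0.279). Both genes were low in every animal, the highest value being 3.32 CPM.

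Bone and cartilage genes mostly had negative values, few of them past the threshold, and their medians moved with the setting. The 27 osteoblast and mineral matrix genes tested had a median log2 fold change of -0.31, with 9 positive and 18 negative. Past the unadjusted threshold 0 were higher and 2 lower, beside 1.11% and 1.39% of all genes. Sex as a covariate moved the median to -0.68 with 4 lower past the threshold, beside 1.73% of all genes in that fit. Without the unprimed replicate 2 the median was -0.12. Enpp1, the enzyme that makes pyrophosphate, an inhibitor of mineral deposition, was read at 13.5, 31.9, 34.1 and 30.3 CPM in BCP+MSC+RvE1 and at 39.5, 117, 38.5 and 26.4 CPM in BCP+MSC. The unprimed replicate 2 was far above all others, and without it the log2 fold change moved from -1.01 to -0.34 (-1.11 with sex as a covariate, unadjusted p = 0.0327). Panx3, a pannexin of osteoblasts and chondrocytes, had 0 reads in the 4 primed and 9 in the 4 unprimed libraries. Pooled over the group, it was at least 3.81-fold lower in BCP+MSC+RvE1 against a floor of 3 counts. This bound does not cover the spread between animals. The unprimed replicate 3 had 0 reads as well, so the groups overlapped (exact permutation p = 0.143). Bglap, which encodes osteocalcin of the mature osteoblast, was under 1 CPM in all 8 animals. It was read at 0.068, 0.181, 0.0757 and 0.0298 CPM in BCP+MSC+RvE1 and at 0, 0.0458, 0.0166 and 0.475 CPM in BCP+MSC. Ibsp, which encodes bone sialoprotein, ranged from 0.476 to 7.55 CPM in BCP+MSC+RvE1 and from 0.305 to 15.4 CPM in BCP+MSC (log2 fold change -0.56 ± 1.05 (SE), unadjusted p = 0.6). Runx2, the transcription factor that commits cells to the osteoblast lineage, was read at 14.5, 22.4, 21.3 and 17.2 CPM in BCP+MSC+RvE1 and at 20.4, 39.7, 15.9 and 22.8 CPM in BCP+MSC, with overlap (log2 fold change -0.39 ± 0.26 (SE), unadjusted p = 0.151). Of 29 cartilage genes, 22 were negative, with a median of -0.22, and 1 was past the threshold. Their median turned to 0.08 with sex as a covariate. The gene past the threshold was Scrg1, a secreted protein of chondrogenic cells, at 0.313, 0.12, 0.303 and 0.164 CPM in BCP+MSC+RvE1 and 0.0818, 0.0763, 0 and 0.0446 CPM in BCP+MSC, counted with 63 and 11 reads in all (log2 fold change 2.17 ± 1.01 (SE), unadjusted p = 0.0421; 2.67 with sex as a covariate, unadjusted p = 0.0315).

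Among 43 genes of the bone morphogenetic protein (BMP) pathway, which drives bone and cartilage formation, 1 was higher and 1 lower past the threshold, and the median was -0.08. Nog (ENSMUSG00000048616.4, chromosome 11, 89300638 to 89302332, minus strand) encodes noggin, a secreted antagonist that binds BMP ligands. Animal by animal it stood at 1.92, 3.01, 1.06 and 1.61 CPM in BCP+MSC+RvE1 and 0.764, 0.275, 1.18 and 0.936 CPM in BCP+MSC. The primed replicate 3 fell below the unprimed replicate 3, so the groups overlapped (log2 fold change 1.26 ± 0.61 (SE), unadjusted p = 0.0495; exact permutation p = 0.0571). Its p stayed under 0.05 on leaving out 2 of the 8 animals and not on leaving out any of the other 6, and was 0.17 with sex as a covariate. In all, 7 of 11 antagonists were positive, with a median of 0.19. Bmp8a, a ligand, was lower past the threshold, at 0.0136, 0, 0.17 and 0.0447 CPM in BCP+MSC+RvE1 and 0.355, 0.595, 0 and 0.193 CPM in BCP+MSC (log2 fold change -2.18 ± 0.97 (SE), unadjusted p = 0.0348; -1.48 with sex as a covariate, unadjusted p = 0.179). Of the 13 ligands 5 were positive, and Bmp2 and Bmp4 had log2 fold changes of -0.12 and 0.36. The 6 target genes had a median of 0.47, with Id1 at 1.04 (unadjusted p = 0.0834) and Id3 at 0.73 (unadjusted p = 0.149), and 5 of them were positive. None of 18 WNT antagonists and targets reached the threshold (median -0.24). The antagonist Wif1 had the smallest p of these (log2 fold change -1.70 ± 0.95 (SE), unadjusted p = 0.0863).

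Genes of the connective tissue matrix were mostly lower in BCP+MSC+RvE1, by amounts that depended on 1 animal. Of 41 fibroblast matrix and TGF-beta genes, 38 were negative and 3 positive, with a median of -0.41, and all 10 collagens were negative. By animal, the mean log2 CPM of the list was 7.12, 6.99, 7.86 and 7.39 in BCP+MSC+RvE1 and 7.56, 8.39, 7.69 and 7.51 in BCP+MSC. The unprimed replicate 2 was the highest and the primed replicate 3 the second highest. Col8a1, a short-chain collagen, was lower past the threshold, at 34.6, 39.5, 61.5 and 32.4 CPM in BCP+MSC+RvE1 and 62.9, 184, 58.7 and 83.4 CPM in BCP+MSC (log2 fold change -1.21 ± 0.51 (SE), unadjusted p = 0.0283; -1.71 with sex as a covariate, unadjusted p = 0.01). So was Tnc, which encodes the wound matrix protein tenascin C, at 128, 184, 398 and 211 CPM in BCP+MSC+RvE1 and 421, 1096, 273 and 262 CPM in BCP+MSC (log2 fold change -1.15 ± 0.49 (SE), unadjusted p = 0.0285; -1.56 with sex as a covariate, unadjusted p = 0.0199). Without the unprimed replicate 2 the list median was -0.17, 0 of the 41 were past the threshold, and Col8a1 and Tnc were at -0.70 and -0.46. With sex as a covariate the median was -0.71 and 9 were lower past the threshold, beside 1.73% of all genes in that fit. Fibronectin, Fn1, was read at 2141, 3001, 4737 and 4239 CPM in BCP+MSC+RvE1 and at 5596, 7858, 4264 and 5448 CPM in BCP+MSC (log2 fold change -0.71 ± 0.38 (SE), unadjusted p = 0.0687). The 14 MSC surface markers had a median of -0.22 and none past the threshold. Their member of smallest p was Ly6a, which encodes Sca-1, an antigen of mouse MSC (log2 fold change 0.49 ± 0.25 (SE), unadjusted p = 0.0593). Of 23 matrix metalloproteinases and their inhibitors 12 were positive (median 0.02). Mmp3, stromelysin 1, was read at 195, 304, 235 and 202 CPM in BCP+MSC+RvE1 and at 102, 154, 142 and 188 CPM in BCP+MSC. The groups did not overlap, although the difference was under the fold of the threshold (log2 fold change 0.68 ± 0.30 (SE), unadjusted p = 0.0316; 0.28 with sex as a covariate).

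Myeloid genes differed in opposite directions by class, with 0 of the members past the threshold in the 4 lists that follow. Of 20 neutrophil genes 18 were positive, with a median of 0.67. The 10 genes of mature neutrophils were all positive, and their mean log2 CPM was 3.92 to 4.47 in BCP+MSC+RvE1 against 3.02 to 3.83 in BCP+MSC, without overlap. S100a8, which encodes a subunit of calprotectin, was read at 142, 89.5, 75.1 and 73.1 CPM in BCP+MSC+RvE1 and at 69.6, 34.7, 56.4 and 36 CPM in BCP+MSC (log2 fold change 0.95 ± 0.60 (SE), unadjusted p = 0.127; 0.77 with sex as a covariate, unadjusted p = 0.308). Il1r2, the decoy receptor of interleukin 1, had the smallest p of the list (log2 fold change 0.68 ± 0.33 (SE), unadjusted p = 0.0515; 0.27 with sex as a covariate, unadjusted p = 0.445). The median of the list was 0.58 without the unprimed replicate 2 and 0.47 with sex as a covariate, where that of the mature neutrophil genes was 0.27, against 0.67 without the covariate. The 20 macrophage and monocyte genes had a median of -0.23, with 15 negative. Among these, Mertk, a receptor for apoptotic cells, was at -0.52 (unadjusted p = 0.175). Inflammatory genes of the macrophage had a median of 0.38 (11 of 16 positive), which was -0.14 with sex as a covariate. Saa3, an acute phase protein, was read at 154, 365, 105 and 162 CPM in BCP+MSC+RvE1 and at 96.3, 44.4, 203 and 59 CPM in BCP+MSC (log2 fold change 0.96 ± 0.52 (SE), unadjusted p = 0.0789). Genes of alternative activation had a median of -0.04 (7 of 16 positive). Arg1, arginase 1, ranged from 166 to 1806 CPM in BCP+MSC+RvE1 and from 1015 to 2140 CPM in BCP+MSC (log2 fold change -0.70 ± 0.56 (SE), unadjusted p = 0.226).

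Osteoclast and giant cell genes, which mark the multinucleate cells that form on mineral granules, had a median of -0.17 and none past the threshold (5 of 18 positive). Siglec15, a sialic acid receptor needed for osteoclast fusion, was lower in every primed animal, at 0.272, 0.301, 0.303 and 0.305 CPM against 0.655, 0.87, 0.48 and 0.743 CPM in BCP+MSC (log2 fold change -1.21 ± 0.66 (SE), unadjusted p = 0.0774; -1.62 with sex as a covariate, unadjusted p = 0.0452). Ctsk and Acp5, which encode cathepsin K and tartrate-resistant acid phosphatase, were at -0.09 and 0.10. Of the 20 mast cell and eosinophil genes 14 were positive (median 0.19). Hdc, which encodes the enzyme that makes histamine, was read at 88.7, 67.6, 83 and 74.9 CPM in BCP+MSC+RvE1 and at 45.5, 33.4, 46.3 and 53.3 CPM in BCP+MSC. The groups did not overlap, and the difference was under the fold of the threshold (log2 fold change 0.82 ± 0.32 (SE), unadjusted p = 0.0181; 0.58 with sex as a covariate, unadjusted p = 0.126). Complement genes had a median of 0.12. Complement component C2 stood out with 44.8, 48.5, 31.1 and 48.3 CPM in BCP+MSC+RvE1 and 13.4, 13.6, 31.2 and 38.6 CPM in BCP+MSC. Its p stayed under 0.05 on leaving out any of the 8 animals (log2 fold change 0.83 ± 0.30 (SE), unadjusted p = 0.00973; 0.77 with sex as a covariate, unadjusted p = 0.0293), but the male unprimed animal, at 38.6 CPM, lay within the range of the primed ones. An exon of C2 overlaps the gene Gm20547 on the same strand and Zbtb12 on the opposite one, so its reads are uncertain to that extent.

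Lymphocyte genes other than those of plasma cells were centred near 0. The medians were -0.01 for 29 T cell and Treg genes, 0.14 for 17 genes of NK and cytotoxic cells, 0.08 for 15 B cell genes and 0.11 for 10 genes of MHC class II, with 0 members past the threshold. Foxp3, the defining factor of Treg, was read at 0.68, 0.421, 0.851 and 0.998 CPM in BCP+MSC+RvE1 and at 1.04, 1.19, 0.629 and 0.876 CPM in BCP+MSC (log2 fold change -0.32 ± 0.50 (SE), unadjusted p = 0.531). Ctla4, an inhibitory receptor of Treg and activated T cells, overlapped as well (log2 fold change -0.60 ± 0.47 (SE), unadjusted p = 0.216). The 32 interferon response genes had a median of -0.13 with all animals and of 0.13 without the unprimed replicate 2. Ifng itself was at most 0.305 CPM in any of the 8 animals. Of 50 cytokines and chemokines 34 were positive (median 0.18; 0.15 with genes read in only 1 group set at their bound). The median was 0.02 without the unprimed replicate 2, with 27 positive. It turned to -0.14 with sex as a covariate, with 23 positive. In that fit 3 were lower past the threshold, beside 1.73% of all genes. Without the covariate, Il11, a cytokine of stromal cells that acts on osteoclasts and fibroblasts, was the 1 past the threshold and was lower, at 0.49, 1.14, 1.13 and 0.64 CPM in BCP+MSC+RvE1 and 1.96, 3.46, 0.91 and 0.683 CPM in BCP+MSC (log2 fold change -1.06 ± 0.51 (SE), unadjusted p = 0.0482; -1.32 with sex as a covariate, unadjusted p = 0.0558). Its sign turned to 0.31 in the comparison of males alone. Ccl3, a chemokine of macrophages, was higher in each primed animal, at 84.6, 39.8, 49 and 42.8 CPM against 37.4, 34.5, 31.9 and 32.6 CPM (log2 fold change 0.66 ± 0.37 (SE), unadjusted p = 0.0817; 0.25 with sex as a covariate, unadjusted p = 0.554).

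Genes of fast muscle fibres and of fat had the highest medians of the 40 lists other than that of sex-linked genes, and they varied widely within the groups. Of 25 fast-fibre sarcomere genes 24 were positive, with a median of 1.06. Their mean log2 CPM was 10.15, 9.00, 10.20 and 9.31 in BCP+MSC+RvE1 and 9.29, 3.69, 8.57 and 9.66 in BCP+MSC, and the unprimed replicate 2 was thus far below the other 7. Without it the median was 0.65, and none of the 25 reached the threshold with or without it. Pvalb, the calcium buffer parvalbumin of fast fibres, was read at 4699, 4256, 2517 and 2231 CPM in BCP+MSC+RvE1 and at 1257, 14, 1314 and 1525 CPM in BCP+MSC. The groups did not overlap, although the threshold was missed (log2 fold change 1.74 ± 0.95 (SE), unadjusted p = 0.0822; 1.12 with sex as a covariate, unadjusted p = 0.306). The 12 slow-fibre genes had a median of -0.25, and the 20 myogenic genes one of 0.78. Muscle lies under the dorsal skin, and the amount of it taken with each construct was not recorded in the labels. All 20 adipocyte genes were positive (median 0.97; 0.44 to 2.08 on leaving out 1 animal). Fabp4, the fatty acid binding protein of adipocytes, was read at 3690, 1596, 849 and 2093 CPM in BCP+MSC+RvE1 and at 349, 429, 571 and 1460 CPM in BCP+MSC (log2 fold change 1.55 ± 0.94 (SE), unadjusted p = 0.114). Among males alone the adipocyte median was -0.12, with 13 of 20 negative. All 55 respiratory chain genes were positive as well (median 0.53), with 53 positive and a median of 0.27 without the unprimed replicate 2. The mean levels of respiratory chain and fast-fibre genes were both lowest in the unprimed replicate 2. With a fast-fibre score as a covariate, the median of the respiratory chain list was 0.04, that of the adipocyte list 0.63, that of the fibroblast matrix list -0.09 and that of the cell cycle list -0.28. Mybl1 was then at -1.46 (unadjusted p = 0.00372), while Ect2, Mastl, Cenpf, Enpp1, Col8a1 and Tnc were at -0.64, -0.37, -0.53, -0.20, -0.46 and -0.31, with an unadjusted p of 0.242, 0.368, 0.23, 0.459, 0.3 and 0.469, and no longer passed the threshold.

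**Figure D4:**
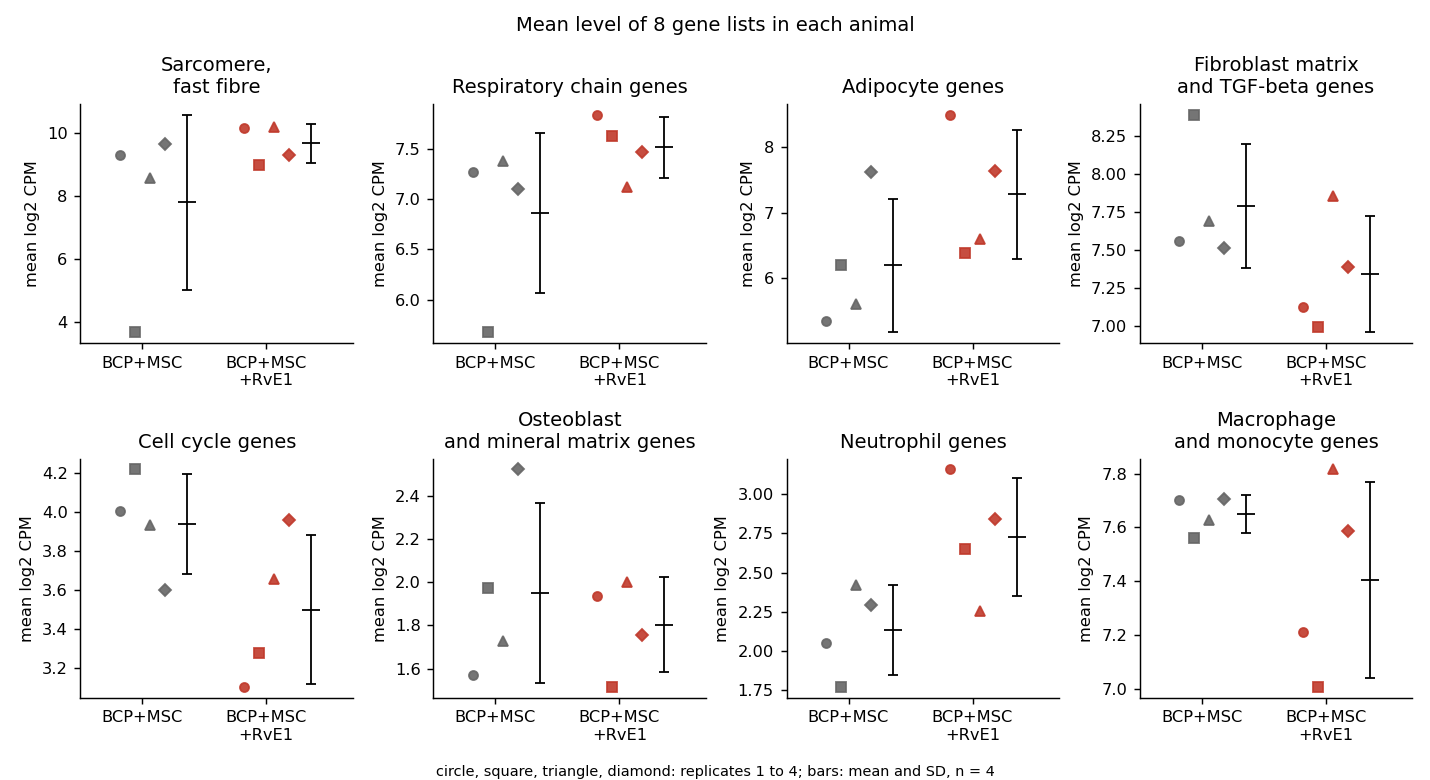
Mean log2 CPM (y axis, prior count 2) of 8 gene lists in each of 4 BCP+MSC (grey) and 4 BCP+MSC+RvE1 animals (red), with the mean and SD as black bars. BCP+MSC replicate 2 (grey square) is the lowest of the 8 animals for sarcomere and respiratory chain genes and the highest for fibroblast matrix and cell cycle genes.

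Clock output genes were the remaining list with 2 members of unadjusted p under 0.05 in a common direction. Of 20 circadian clock genes 16 were positive (median 0.28; 0.19 to 0.35 on leaving out 1 animal), and all 8 output genes were. Usp2, a deubiquitinase under clock control, was higher past the threshold, at 44.8, 51.3, 26 and 18.2 CPM in BCP+MSC+RvE1 and 15.9, 5.85, 19.3 and 17.1 CPM in BCP+MSC (log2 fold change 1.27 ± 0.54 (SE), unadjusted p = 0.0278; 1.43 with sex as a covariate, unadjusted p = 0.0327). Tef, a PAR bZIP factor that binds D-box elements, was read at 148, 102, 87.8 and 73.6 CPM in BCP+MSC+RvE1 and at 54.8, 45, 64 and 81.4 CPM in BCP+MSC (log2 fold change 0.74 ± 0.31 (SE), unadjusted p = 0.0237; 0.72 with sex as a covariate, unadjusted p = 0.0555). Neither gene had an unadjusted p under 0.05 with the fast-fibre score as a covariate (0.156 for Usp2 and 0.23 for Tef). For both genes the primed replicate 4 overlapped the unprimed animals. Exons of both overlap genes on the opposite strand, Gm17597 for Tef and Gm39325 and Gm49380 for Usp2. Of the core genes, Per3 was at 0.60 (unadjusted p = 0.0644) and Nr1d1, which encodes REV-ERB alpha, at 0.07. The hour of harvest is not given in the labels. The clock acts through E-boxes with the core CACGTG, and the first of 2 promoter windows of Tef (RefSeq, GRCm38.p6, chr15:81802423-81802722, plus strand) is shown with that motif, searched on both strands, in capitals.
Tef: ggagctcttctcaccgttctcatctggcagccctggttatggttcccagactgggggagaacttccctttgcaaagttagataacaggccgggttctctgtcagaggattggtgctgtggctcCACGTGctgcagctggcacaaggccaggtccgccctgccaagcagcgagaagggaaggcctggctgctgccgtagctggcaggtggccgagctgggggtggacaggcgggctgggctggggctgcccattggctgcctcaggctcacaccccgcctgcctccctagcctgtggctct
CACGTG was found in 6 of 22 promoters of 17 listed clock genes (27.3%) and in 7.15% of all promoters. The 1 window of Usp2 (chr9:44084670-44084969, plus strand) did not hold these letters. That window lies inside the gene, which starts at 44067021 in the counts, and the start further upstream was not searched. Among 16 glucocorticoid response genes 12 were positive (median 0.36). Tsc22d3, which encodes the glucocorticoid-induced leucine zipper GILZ, was read at 158, 267, 188 and 160 CPM in BCP+MSC+RvE1 and at 108, 80.9, 174 and 117 CPM in BCP+MSC (log2 fold change 0.69 ± 0.32 (SE), unadjusted p = 0.0412; 0.65 with sex as a covariate, unadjusted p = 0.105), while Fkbp5, another target of that receptor, was at 0.02.

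The other lists had few members with an unadjusted p under 0.05. Of 28 hypoxia and glycolysis genes 19 were negative (median -0.14), with Hk1, hexokinase 1, at -0.59 (unadjusted p = 0.0398). With sex as a covariate their median was -0.46 and 4 were lower past the threshold, beside 1.73% of all genes in that fit. Lmod1, a smooth muscle leiomodin, was higher among 14 pericyte and smooth muscle genes (log2 fold change 0.87 ± 0.39 (SE), unadjusted p = 0.0356; 0.76 with sex as a covariate, unadjusted p = 0.1), where the median was 0.14. Tchh, trichohyalin of the hair follicle, was the 1 of 26 keratinocyte and hair genes past the threshold and was lower (log2 fold change -1.08 ± 0.51 (SE), unadjusted p = 0.0455; -0.82 with sex as a covariate, unadjusted p = 0.192). The medians of the remaining lists were -0.05 for endothelial genes, 0.21 for nerve and Schwann cell genes, 0.57 for erythroid genes, 0.35 for mitochondrially encoded genes, 0.26 for genes of muscle atrophy and fasting, 0.18 for immediate early genes and 0.35 for ligands of the EGF and FGF families (0.29 with the gene read in only 1 group set at its bound). No member of these 7 reached the threshold. Over the 910 different genes of the 41 lists, 4 were higher and 9 lower past the unadjusted threshold, 1.43% beside 2.50% of all genes tested. No whole list, apart from that of the X-linked genes below, had mean levels that separated the 2 groups of animals. The sign of the median was kept without the unprimed replicate 2 in 31 and with sex as a covariate in 29 of the 40 lists other than that of sex-linked genes. Besides the cartilage, inflammatory macrophage and cytokine lists, those that turned with sex were the NK and cytotoxic, B cell, MHC class II, complement, endothelial, immediate early and metalloproteinase lists, at -0.33, -0.11, -0.22, -0.15, 0.08, -0.15 and -0.39, and the keratinocyte and hair list, which went from -0.44 to 1.36.

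**Figure D5:**
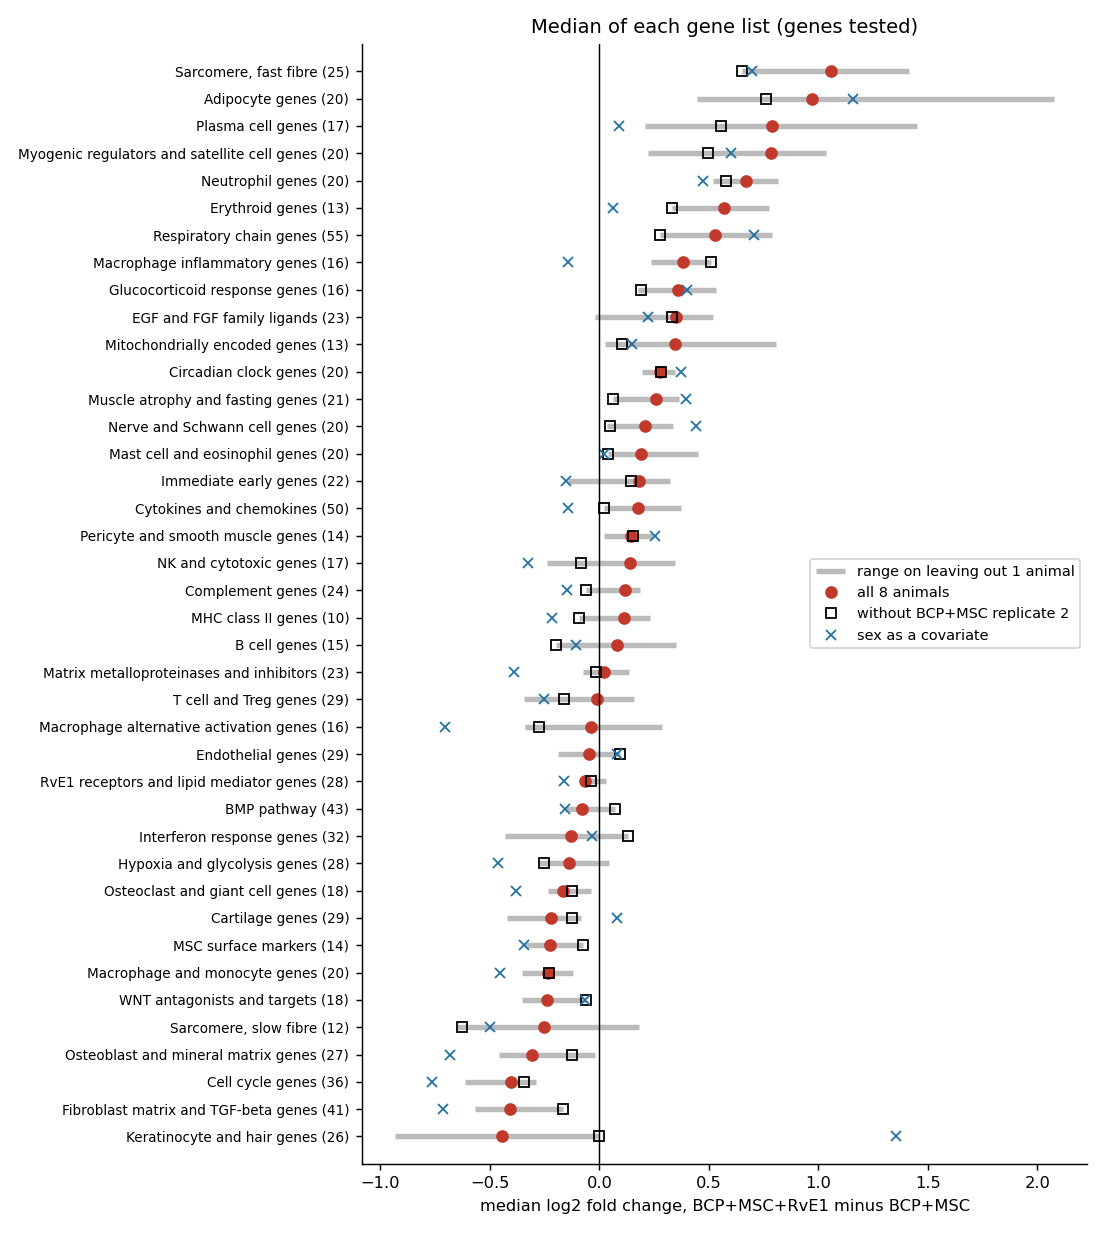
Median log2 fold change of BCP+MSC+RvE1 against BCP+MSC (x axis) over the tested genes of each of 40 lists (y axis, number of genes in brackets), with all 8 animals (red), without BCP+MSC replicate 2 (open squares) and with sex as a covariate (crosses), and the range on leaving out 1 animal (grey bars). The fast-fibre list stands at 1.06 and falls to 0.65 without that animal, while the cell cycle list stays negative in all of these settings.

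Genes on the X chromosome that keep a partner on the Y, 4 genes grouped after their values were seen, all had negative log2 fold changes. Kdm6a, a histone demethylase, was read at 16.6, 12.1, 12.4 and 12.8 CPM in BCP+MSC+RvE1 and at 20, 36.6, 22.4 and 19.6 CPM in BCP+MSC (log2 fold change -0.87 ± 0.26 (SE), unadjusted p = 0.00295). Kdm5c, likewise a demethylase, was read at 51.2, 50.9, 68.6 and 57.7 CPM in BCP+MSC+RvE1 and at 94.5, 135, 77.9 and 70.2 CPM in BCP+MSC (log2 fold change -0.73 ± 0.24 (SE), unadjusted p = 0.00648). For both, the male unprimed animal was the lowest of its group, and with sex as a covariate the differences were -0.37 and -0.49 (unadjusted p = 0.128 and 0.0891). Ddx3x, an RNA helicase, was read at 161, 137, 198 and 162 CPM in BCP+MSC+RvE1 and at 160, 355, 165 and 252 CPM in BCP+MSC (log2 fold change -0.50 ± 0.24 (SE), unadjusted p = 0.0487; -0.40 with sex as a covariate, unadjusted p = 0.163). Eif2s3x, a translation initiation factor, was read at 20.5, 52.5, 25.2 and 22.9 CPM in BCP+MSC+RvE1 and at 27.9, 62.7, 40.5 and 32.2 CPM in BCP+MSC (log2 fold change -0.44 ± 0.31 (SE), unadjusted p = 0.169; -0.06 with sex as a covariate, unadjusted p = 0.849). For these 2 genes the values of male and female hosts overlapped. The male unprimed animal was above 2 of the 3 females for Ddx3x. The primed replicate 2, a male, was above 2 of the 3 females for Eif2s3x.

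RvE1 was also given in another way in the series, and those samples share none with the comparison above. In Foxp3-DTR/eGFP mice treated with diphtheria toxin at 50 µg/kg, unprimed constructs with local RvE1 injections at 1 µM, the group (dep)BCP+MSC+RvE1inj, were set against unprimed constructs without them, (dep)BCP+MSC, with 4 samples in each. There, 802 genes were higher (2.62%) and 765 lower (2.50%) past the unadjusted threshold and 0 past the adjusted one, the smallest adjusted p being 0.668, while 2269 had an unadjusted p under 0.05. Of the 338 genes higher with priming, 22 were also higher and 10 lower with injection past the unadjusted threshold, and of the 425 lower, 26 were also lower and 19 higher. The signs agreed for 53.6% of each set, beside 50.1% and 48.7% of all genes with that sign under injection. The cell cycle list had a median of 0.29 with injection, with 32 of 36 positive, beside -0.40 with priming. Mybl1 was at -0.44 (unadjusted p = 0.364) and Nog at -0.08 (unadjusted p = 0.892) with injection. The list medians of T cell, B cell, MHC class II and interferon response genes with injection were 0.75, 1.58, 0.99 and 0.70, where those with priming were -0.01, 0.08, 0.11 and -0.13. The test of the difference between the 2 effects passed the adjusted threshold for 0 genes in edgeR (smallest adjusted p = 0.355). An unadjusted p under 0.05 was reached by 1360 of the 30564 genes, where a share of about 0.05 is expected without any difference. For genes named above this test gave unadjusted p = 0.029 for Mybl1, 0.0369 for Ect2, 0.0372 for Cenpf, 0.174 for Mastl, 0.241 for Bub1b and 0.13 for Nog. All of these but Nog had been chosen for a small p with priming. Nog was named by itself but also had the smallest p of the BMP list with priming. A small p with priming favours a difference here, for Nog as for the others. By Xist and Y-linked genes, 2 of the 4 (dep)BCP+MSC hosts were female and all 4 of (dep)BCP+MSC+RvE1inj were male, so that sex was unbalanced there too, and its part in the values with injection was not tested. The hosts of the 2 comparisons differ in toxin and Treg as well as in the route of RvE1, and these cannot be told apart.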

How the data were processed

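Whole constructs harvested at 2 weeks were sequenced as stranded poly(A) libraries in paired-end mode. The authors aligned the reads with HISAT2 2.0.5 and made the deposited counts per gene with featureCounts 1.5.2 over GENCODE M13 exons (GRCm38), with no strand setting stated; their notes also name Picard and STAR. The table holds raw counts of 24 libraries in 51138 rows, and all 24 columns were used. Coordinates and the exon overlaps found from them are those of the table, while symbols (50462 identifiers matched) and gene types are from GENCODE M21 on the same build. Genes with at least 10 counts over 24 libraries were tested in edgeR 4.0.16 (R 4.3.3; TMM, robust quasi-likelihood fit, 6 groups, no covariate) with the contrast BCP+MSC+RvE1 minus BCP+MSC and Benjamini-Hochberg adjustment. DESeq2 1.42.0 was an alternative. The scripts were tested on simulated data.

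Samples were grouped by their labels, which call them biological replicates. The labels give no donor or batch, so p-values cover the spread between these samples. Columns of (dep)BCP+MSC include 2 that carry no matching replicate number. The sex of each host was taken from Xist and 4 Y-linked genes. Levels of lists are means of log2 CPM (prior count 2). The standard error is the fold change divided by the root of the test statistic. A count of 3 was the floor, which covers counting error only.

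The comparison, the gene lists and the rule below were chosen with earlier results of these data known. Named were Nog, Cmklr1 and Ltb4r1, up to 12 genes per direction of smallest p with a full symbol, past the unadjusted threshold, with a mean of at least 1 CPM in a group and no overlap between groups (8 qualified), and the 2 members of smallest p in each list. Members of this last kind that have no value in the text did not reach the unadjusted threshold, and 2 of them are not reported here. Other members of the lists, such as Top2a, Fn1, Foxp3 or S100a8, were added as well-known markers after their values were seen. Alternatives were other scalings and filters, the 8 samples alone, the replicate number, sex, muscle score or library size as a term, males only, and leaving out each animal.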

Additional observations from a re-analysis of the deposited data

Results flagged for a closer look

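Within each group of 4 animals, 1 value was marked where its gap to the nearest other, as a share of the group's range, exceeded Dixon's 95% critical value for 4 samples. This was run on 40 list levels and 11 named genes in both groups, 102 tests in all, of which 6 were marked, where chance marks about 1 in 20. All 6 are list levels, as mean log2 CPM. In BCP+MSC, replicate 2 was the lowest for T cell and Treg genes (1.38, others 2.07 to 2.20), MHC class II genes (5.67, others 6.58 to 6.66) and respiratory chain genes (5.68, others 7.10 to 7.38). In BCP+MSC+RvE1, replicate 4 was the highest for mast cell and eosinophil genes (2.49, others 2.17 to 2.20), replicate 1 for keratinocyte and hair genes (-1.39, others -2.89 to -2.68) and replicate 3 for glucocorticoid response genes (5.95, others 5.71 to 5.75). The lists without BCP+MSC replicate 2 had medians of -0.16, -0.09 and 0.27, in the same order. The cause of these values was not tested.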

How the results depend on the processing

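The count of genes past the unadjusted threshold, 338 higher and 425 lower, moved by over 1.5 times in several settings. It was 212 and 254 with DESeq2 on all samples, 91 and 146 with edgeR's expression filter, which tests fewer genes, and 86 and 160 among males only, where BCP+MSC has 1 animal and is assumed to vary like the other groups. It was 524 higher and 530 lower with sex as a covariate, and 273 lower with edgeR on the 8 samples alone. Leaving out 1 animal gave 248 to 664 higher and 258 to 646 lower genes. The replicate number as a block gave 202 higher and 260 lower. The numbers name different animals, and same-numbered samples deviated from their group means with correlations of -0.11, -0.35, -0.65 and 0.03, so no pairing was assumed. Genes past the adjusted threshold numbered 3 and 1 with DESeq2 on all and on 8 samples and 0 in the other 17 settings.

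Of the named genes, these changed sign. Among males only the log2 fold changes were 0.0663 for Enpp1, 0.31 for Il11, 0.16 for Xist, 0.81 for Ltb4r1, 1.64 for Tnnt1, 1.31 for Col2a1, 0.40 for Wif1, 1.91 for Dkk4, 0.025 for Tgm2, 0.0948 for Stab1, -0.0719 for Fasl, 0.95 for Ido1, -0.0887 for Slc2a4, 0.84 for Prox1, -0.17 for Synpo2, -0.10 for Fgf13, 0.48 for Areg and -0.0454 for Eif2s3y. With sex as a covariate they were 0.11 for Ccl21a, 0.35 for Ido1, 0.14 for Prox1, 0.42 for Areg and -0.24 for Eif2s3y, and with the muscle score 0.11 for Cmklr1, 0.49 for Prox1 and -0.0146 for Synpo2. On leaving out 1 animal the range was -0.29 to 0.0547 for Cmklr1, -0.70 to 0.20 for Ltb4r1, -2.78 to 0.23 for Col2a1, -0.71 to 0.0134 for Blk, -5.27 to 1.30 for Ido1, -2.05 to 0.41 for Prox1, -1.50 to 3.46 for Snap25 and -0.0742 to 0.557 for Uchl1. Dsg3 had no read left without BCP+MSC replicate 2. The cause was not tested. Of these, Enpp1, Il11 and Xist had an unadjusted p under 0.05. Medians of 25 lists changed sign in at least 1 setting. Depth limits genes near 0.166 CPM, where the shallowest library holds 3 reads.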
